A study of Mus musculus with 58 samples.

Results

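Cytosolic ribosomal protein genes were followed in 2 cortical regions of aged *APOE* mice, the entorhinal cortex, or EC, and the primary visual cortex, or PVC. Members were taken by symbol, as every gene whose name starts with Rpl, Rps or Rplp and a number, leaving out the Rps6k kinases and symbols marked as pseudogenes or related sequences, whose mean normalized count reached 10 in both regions. Of the 31246 genes listed per region, 95 symbols matched, 10 were kinases and 1 was a pseudogene (*Rpl29-ps3*), which left 84 genes. Of these, 81 passed the minimum and are described here, 48 with a symbol of the large subunit and 33 with a symbol of the small subunit. The 3 genes below it were *Rpl3l*, with a mean normalized count of 12.8 (EC) and 6.35 (PVC), *Rpl39l*, with 1.74 and 0.732, and *Rpl10l*, which was listed at 0 in both. The lowest gene inside it was *Rps27l*, with 232 in the EC and 136 in the PVC, so no member lay near the minimum.

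The RNA came from male *APOE* targeted replacement mice on a C57Bl/6 background, aged 14 to 15 months, in which human *APOE* stands in the place of the mouse gene and is driven by the mouse promoter. There were 10 *APOE3/3* mice, with human *APOE3* on both alleles, and 19 *APOE3/4* mice, with 1 allele each of *APOE3* and *APOE4*, and each gave an EC and a PVC library, 58 in all. The mice of the study came from 2 separate colonies, and which colony gave which mice is not given in the sources used here. Poly(A) RNA was sequenced in single-end reads of 149 bases, and the values used were the authors' mean normalized counts, 1 per gene and region, each taken over all 29 libraries of that region with both genotypes pooled. These means carry no spread between mice, so there is no replicate check, no error and no test on any level or ratio below, and the genotypes are not compared.

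A ribosome is built from a small subunit, which reads the mRNA, and a large subunit, which joins amino acids, and each ribosomal protein is present in 1 copy per ribosome apart from the acidic P-stalk proteins. Their mRNAs are among the most abundant of any cell, and most of them start with a 5′ terminal oligopyrimidine (TOP) tract, a C followed by a run of pyrimidines, through which mTOR signaling controls their translation. In neurons they are translated in dendrites and axons as well as in the cell body. Ribosomal protein genes have also left many intronless copies in mammalian genomes, so their reads can match more than 1 place.

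The starts of 5 members are shown because they bear this shared signal or lack it. Each line holds the 30 bases around a transcript start annotated by RefSeq in GRCm38.p6, with the pyrimidine run in capitals where a C and at least 4 further pyrimidines (C or T) began between 5 bases before and 15 bases after the start on the gene's strand. *Rps6* encodes the ribosomal protein phosphorylated by S6 kinase, *Rpl7a* and *Rpl35* encode proteins of the large subunit, and *Rps15* and *Rps4x* encode proteins of the small subunit.
Rps6 (chr4:86857348-86857377, minus strand): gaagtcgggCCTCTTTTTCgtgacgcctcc
Rpl7a (chr2:26910797-26910826, plus strand): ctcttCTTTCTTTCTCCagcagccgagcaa
Rpl35 (chr2:39005112-39005141, minus strand): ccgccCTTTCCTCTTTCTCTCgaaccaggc
Rps15 (chr10:80292421-80292450, plus strand): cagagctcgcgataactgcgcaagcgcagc
Rps4x (chrX:102189372-102189401, minus strand): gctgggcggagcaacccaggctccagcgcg
Counted from its first C inside this window, the run was 10 bases in *Rps6*, 12 in *Rpl7a* and 16 in *Rpl35*, where in the last 2 further pyrimidines stand just before the window, and no run lay in the windows of *Rps15* and *Rps4x*. Promoters were given for 59 of the 81 members, with 70 starts in all. A run was found at 41 of the 70 starts, or 58.6%, against 29.9% of 32851 promoters of all genes in the same window, and 38 of the 59 members had at least 1. A run in this window is a match of letters, and its absence says only that the letters are not there.

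Ribosomal protein genes were abundant in both regions. With no correction for length, their median percentile among genes with a mean of at least 10 was 85.6 (EC) and 85.0 (PVC). The mean normalized counts of the members ran from 232 (*Rps27l*) to 18163 (*Rpl3*) in the EC, with a median of 4928. In the PVC they ran from 136 (*Rps27l*) to 9971 (*Rpl4*), with a median of 2819. Together the members held 0.903% of all normalized counts of the EC and 0.932% of those of the PVC, or 2.74% and 2.79% when each gene's count was divided by its exon length. Each region was normalized in its own table, and the EC values lay above the PVC values for most genes, with a median of 1.86-fold over the 15642 genes with a mean of at least 10 in both, so a higher EC level below is not by itself a difference between the regions.

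Levels were compared between genes per kilobase, on 2 scales. The first divides by all bases annotated as exon in the NCBIM37 annotation, which counts retained introns and long rare transcripts, and the second by the length of 1 coding transcript. Per kilobase of exon the median level of the members was 3260 (EC) and 1809 (PVC), and their median percentile among all genes with a mean of at least 10 and a length was 95.8 and 95.5. Per kilobase of coding transcript the medians were 6873 and 3941, both at a percentile of 97.2. On the second scale 75 of the 81 members lay above the 90th percentile in each region, against 66 in the EC and 65 in the PVC on the first.

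On the coding transcript scale most members lay close together. The upper quartile of the level was 1.72 times the lower in the EC and 1.74 times in the PVC, whereas the highest member was 53.0 and 47.7 times the lowest. Per kilobase of exon they were spread more widely, with an upper quartile 3.16 times the lower in the EC and 3.10 times in the PVC. The order of the members was nearly the same in the 2 regions, with a Spearman rho of 0.997 over 81 genes per kilobase of exon, given as a description, since these are the same genes with the same lengths and annotation in libraries of the same mice. Members with a symbol of the small subunit had a median of 7744 per kilobase of coding transcript in the EC and 4289 in the PVC, and those of the large subunit 6467 and 3630. The summed counts of the large subunit genes were 1.72 times those of the small subunit genes in the EC and 1.71 times in the PVC.

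**Figure D1:**
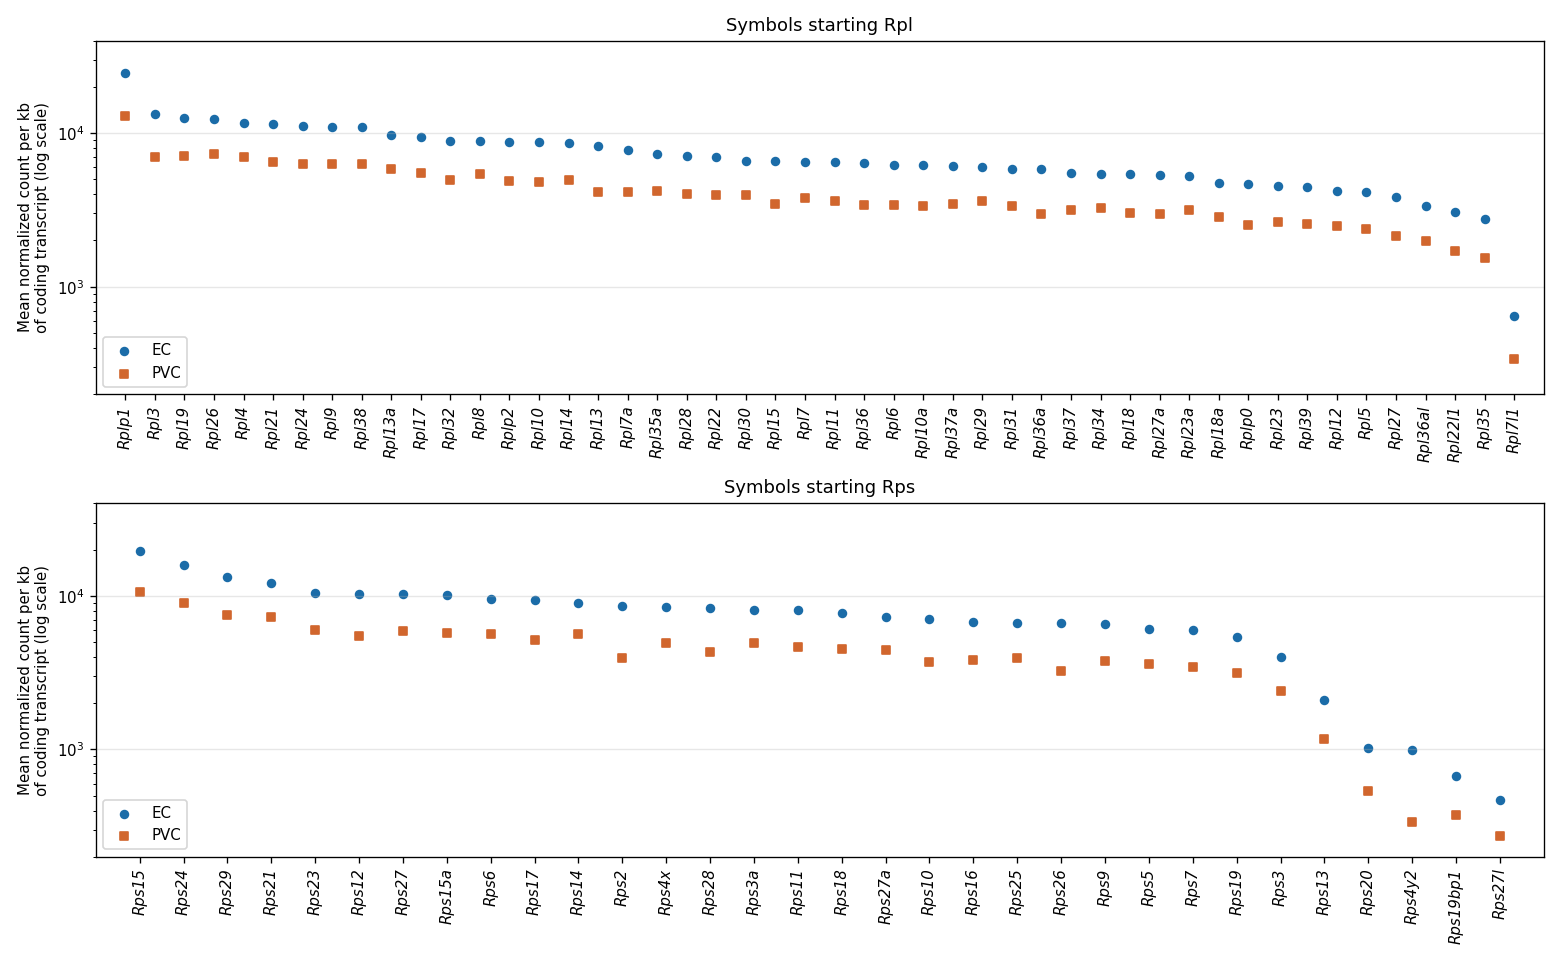
Mean normalized count per kilobase of coding transcript (log scale) of 80 of the 81 ribosomal protein genes, ordered by the EC level, in the EC (circles) and the PVC (squares), with the 48 Rpl genes above and 32 Rps genes below. *Rplp1* stands highest at 24680 in the EC, and *Rps27l* lowest at 465. Each point is the authors' mean over 29 libraries with no error, and the 2 regions were normalized separately.

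The highest levels per kilobase of exon were those of *Rplp1*, *Rps15*, *Rpl3*, *Rpl4* and *Rps23* in both regions. *Rplp1*, which encodes an acidic protein of the stalk that recruits elongation factors, was at 24680 in the EC and 12983 in the PVC. *Rps15*, for a protein of the small subunit head, was at 15128 and 8116. *Rpl3* and *Rpl4*, for large proteins that bind the 28S rRNA, were at 13345 and 11586 in the EC, and at 6981 and 7012 in the PVC. *Rps23*, for a protein near the decoding site, was at 10371 and 5952. On the coding transcript scale *Rplp1* (24680 in the EC) and *Rps15* (19726) were still the highest, followed by *Rps24*, with 15875.

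The lowest levels per kilobase of exon in the EC were those of *Rps27l* (285), *Rpl7l1* (643), *Rps19bp1* (676), *Rps19* (733) and *Rpl18* (913). In the PVC the lowest were *Rps27l* (166), *Rps4y2* (335), *Rpl7l1* (341), *Rps19bp1* (376) and *Rps19* (426). Most of these are relatives or partners of ribosomal proteins. *Rpl7l1* encodes a relative of Rpl7 found on precursors of the large subunit, and *Rps19bp1* a protein that binds Rps19, so neither is a structural protein of the mature ribosome. *Rps19* and *Rpl18* are core members with 4685 and 4042 annotated exon bases, against a median of 1434 for the members. Per kilobase of coding transcript they stood higher, at 5424 and 5438 in the EC, but still no higher than the members' lower quartile of 5438. The part of exon length in their low place was not tested. *Rps20* was low on both scales, with 931 (EC) and 489 (PVC) per kilobase of exon and 1025 and 539 per kilobase of coding transcript. Its annotated coding transcript is 3706 bases long against a median of 710 for the members, and the part of this length in its low place was not tested.

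Members with named roles were spread over the range of levels, from *Rplp1* of the P-stalk at the top downward, and the 3 P-stalk genes had a median level of 8756 per kilobase of coding transcript in the EC against 6873 for all members. The other P-stalk genes were *Rplp0*, with a mean normalized count of 6341 (EC) and 3437 (PVC), and *Rplp2*, with 3686 and 2068. Per kilobase of coding transcript in the EC, *Rplp0* was at 4669, below the median of the members, and *Rplp2* at 8756. *Rpl5* and *Rpl11*, whose proteins carry the 5S rRNA and bind Mdm2 when ribosome assembly is disturbed, had counts of 8517 and 5372 in the EC and 4889 and 3028 in the PVC. *Rps6*, the S6 kinase target, had counts of 8418 and 4934, and *Rps27a*, which is made as a fusion with ubiquitin, 4672 and 2810. Per kilobase of coding transcript in the EC, *Rpl5* (4165) and *Rpl11* (6448) lay below the median of the members, and *Rps6* (9587) and *Rps27a* (7335) above it. The 9 members on the list of Diamond-Blackfan anaemia genes, mutated in an inherited failure of red cell production, had a median level of 6659 per kilobase of coding transcript in the EC against 6873 for all members. The 6 genes for proteins at the exit of the peptide tunnel had a median of 7640.

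Some structural proteins of the ribosome have symbols that the rule does not take. *Rpsa* (the laminin receptor protein of the small subunit) had a mean normalized count of 11181 (EC) and 6888 (PVC). *Gnb2l1* (Rack1, a scaffold on the small subunit) had 6179 and 3624, and *Fau* (a ubiquitin-like fusion with Rps30) 4278 and 2571. These 3 genes had a median of 6008 in the EC on both scales. That is below the median of the members per kilobase of coding transcript (6873) but above it per kilobase of exon (3260), so the direction depends on the length used.

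Paralogs of ribosomal protein genes were lower than their parent genes per kilobase of coding transcript in each pair. *Rps27l*, a p53 target related to *Rps27*, was at 4.54% of *Rps27* in the EC and 4.59% in the PVC. *Rpl7l1* was at 9.91% and 8.97% of *Rpl7*, *Rpl22l1* at 43.6% and 43.1% of *Rpl22*, and *Rpl36al* at 58.3% and 66.2% of *Rpl36a*. *Rpl3l*, a striated muscle form, was at 0.0921% and 0.0875% of *Rpl3*, *Rpl39l*, a testis form, at 0.0710% and 0.0521% of *Rpl39*, and *Rpl10l*, another testis form, was listed at 0. Per kilobase of exon each of these paralogs again lay below its parent except *Rpl22l1*, which then stood at 268% of *Rpl22* in the EC and 265% in the PVC, so the direction within that pair depends on the length used.

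**Figure D2:**
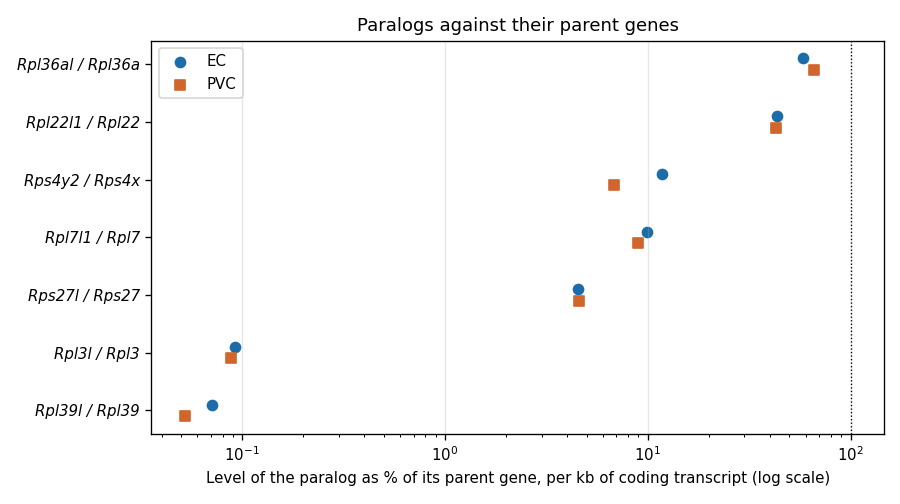
Level of each paralog as a percentage of its parent gene, per kilobase of coding transcript (log scale), in the EC (circles) and the PVC (squares). The pairs run from below 0.1% (*Rpl39l*, *Rpl3l*) to 66.2% (*Rpl36al* in the PVC), none reaches the dotted line at 100%, and the EC and PVC points lie farthest apart for *Rps4y2* and *Rpl39l*. *Rpl10l* was listed at 0 and is not drawn.

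*Rps4y2* was the member that differed most between the regions. RefSeq now calls it *Rps4l*, with *Rps4y2* as a synonym, and classes it as a transcribed pseudogene, while the NCBIM37 annotation gives it a coding sequence. It is an intronless gene at chr6:148303178-148304120 on the plus strand of NCBIM37, the only member with a single exon, and its coding sequence matched that of the X-linked *Rps4x* at 80.1% of aligned bases. The closest stretch of 149 bases, the length of a read, is shown for both because it bears on which gene a read could be assigned to. Both stretches run from base 628 to base 776 of the coding sequence, that of *Rps4y2* lies at chr6:148303859-148304007, and capitals mark the 21 bases that differ.
Rps4y2: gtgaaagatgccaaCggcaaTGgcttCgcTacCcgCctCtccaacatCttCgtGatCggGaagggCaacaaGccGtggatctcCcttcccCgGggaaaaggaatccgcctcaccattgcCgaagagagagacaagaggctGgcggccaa
Rps4x: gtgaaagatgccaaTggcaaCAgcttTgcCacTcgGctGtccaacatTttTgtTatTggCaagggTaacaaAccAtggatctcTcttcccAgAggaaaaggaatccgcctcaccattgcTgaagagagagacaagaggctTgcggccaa
No window of 149 bases of *Rps4y2* was found elsewhere in the genome with 2 mismatches or fewer. *Rps4y2* had a mean normalized count of 936 (EC) and 316 (PVC), while *Rps4x* had 8253 and 4785, so *Rps4y2* was at 11.7% of *Rps4x* in the EC and 6.82% in the PVC per kilobase of coding transcript. *Rps4y2* lies inside *Tmtc1* on the opposite strand, and since the library kit does not keep the strand, reads of the 2 genes there cannot be told apart. *Tmtc1* had a count of 4640 (EC) and 2863 (PVC).

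To set the regions side by side, the EC over PVC ratio of the means was taken as log2 and centred on its median of 0.89 over the 15642 genes with a mean of at least 10 in both, so that 0 marks a gene that moves with the median gene. Region and table cannot be told apart in this ratio, and it has no replicate check. The median of the 81 members was -0.08, or 1.06-fold toward the PVC, with quartiles at -0.12 and -0.03. Of the members, 64 (79.0%) were below 0, against 50% of all genes, 53.9% of the 12097 genes with a mean of at least 100 and 58.3% of the 5812 with at least 1000. With the centre taken from the genes with a mean of at least 100, 63 were below 0, and with the ratio of the summed counts as the centre, 62.

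The ribosomal protein genes spanned a narrow range of ratios. The middle 50 percent of the members spanned 0.09 on the log2 scale, while that of all genes spanned 0.31 and that of the genes with a mean of at least 1000 spanned 0.23. Within 0.25 of the centre lay 80 of the 81 members (98.8%), against 67.0% of all genes and 77.1% of those with a mean of at least 1000. At 0.5 or more on the centred log2 scale, 1 member was higher in the EC and 0 were lower, where 8.50% of all genes were higher and 6.42% lower. At 0.25 or more the counts were again 1 and 0, where 18.4% of all genes were higher and 14.6% lower. The 1 member was *Rps4y2*, whose ratio of 0.68 was reached or exceeded by 5.41% of all genes, while *Rps4x* was at -0.11 and *Tmtc1*, the gene around it, at -0.20. Without *Rps4y2* the SD of the members' ratios went from 0.114 to 0.0787.

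**Figure D3:**
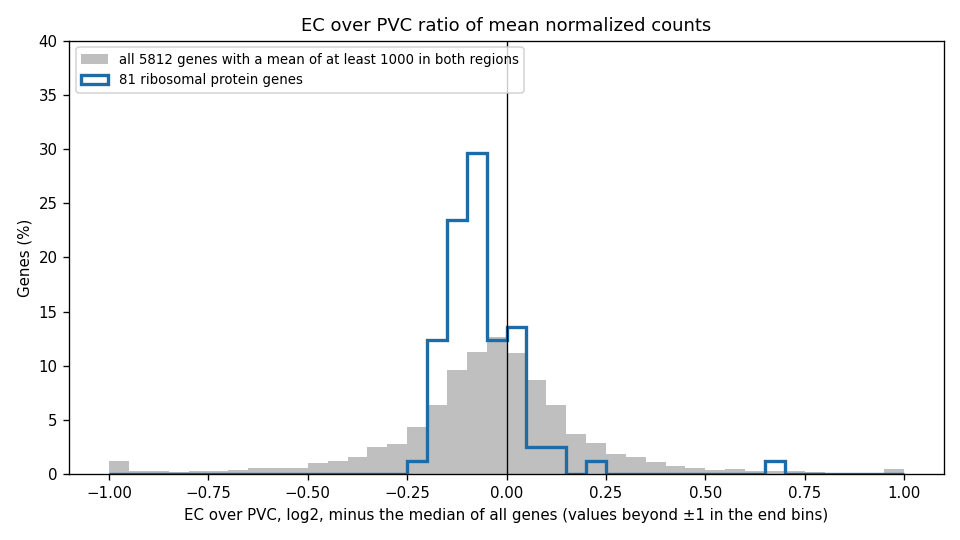
Share of genes (%) in bins of the EC over PVC log2 ratio of mean normalized counts, minus the median of all genes with a mean of at least 10 in both regions, for the 81 ribosomal protein genes (line) and the 5812 genes with a mean of at least 1000 (filled). The ribosomal protein genes lie within 0.25 of 0 except *Rps4y2*, the single gene at 0.68, and most lie left of 0.

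Beside *Rps4y2*, the highest centred ratios were those of *Rps2* (0.22), *Rps26* (0.14), *Rpl13* (0.10) and *Rps28* (0.07). *Rps2*, for a protein at the mRNA entry of the small subunit, had a mean normalized count of 8541 (EC) and 3958 (PVC). *Rps26*, at the mRNA exit and on the Diamond-Blackfan list, had 2977 and 1450. *Rpl13* had 6410 and 3215, and *Rps28* had 2268 and 1162. All 4 have other copies in the genome, as do 51 of the 81 members. Of their 149-base windows, 94.4% in *Rps2*, 84.6% in *Rps26*, 89.9% in *Rpl13* and 65.9% in *Rps28* were found elsewhere with at most 2 mismatches. The median member had 70.4%.

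Among the lowest centred ratios were those of *Rps14* (-0.23), *Rpl8* (-0.17), *Rps3a* (-0.17) and *Rpl4* (-0.17). *Rps14*, for a protein of the small subunit platform that is lost in a form of myelodysplasia, had a mean normalized count of 5372 (EC) and 3397 (PVC). *Rpl8* had 7641 and 4635. *Rps3a* had 7954 and 4817, and *Rpl4* had 16475 and 9971. The same windows were shared at 42.5% in *Rps14*, 0% in *Rpl8*, 87.1% in *Rps3a* and 14.1% in *Rpl4*.

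Members of both subunits lay near the same value, and the medians of the role lists ran from -0.10 to -0.01. The median centred ratio was -0.09 for the small subunit symbols, with 25 of 33 below 0, and -0.07 for the large subunit symbols, with 39 of 48 below 0. The tunnel exit genes had a median of -0.10 and all 6 were below 0. The Diamond-Blackfan list had a median of -0.07 with 7 of 9 below 0, the 5S particle genes a median of -0.08, and the P-stalk genes a median of -0.01. None of the genes on these role lists reached 0.5 in either direction. *Rpsa* (-0.19), *Fau* (-0.16) and *Gnb2l1* (-0.12), structural genes outside the rule, had a median of -0.16.

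Lists of other genes of translation had medians nearer to 0, with interquartile widths from 0.09 (initiation factors) to 0.20 (elongation factors) against 0.09 for the members. The 28 initiation factor genes had a median centred ratio of -0.01 with 16 below 0, and the 28 ribosome assembly genes a median of -0.03 with 16 below 0. The 76 mitochondrial ribosomal protein genes, which encode a separate ribosome, had a median of -0.03 with 50 below 0 and ran from -0.36 to 0.45. The 7 elongation factor genes had a median of -0.05 and ran from -0.28 to 0.16. *Eef1a1*, which delivers aminoacyl-tRNA and is itself a TOP gene, was at 0.16, with a mean normalized count of 92996 (EC) and 44780 (PVC). *Eef1a2*, the form of neurons and muscle, was at -0.28, with 40001 and 26208, and *Eef2*, which moves the ribosome along, was at -0.16. None of these 4 lists held a gene at 0.5 or more in either direction.

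**Figure D4:**
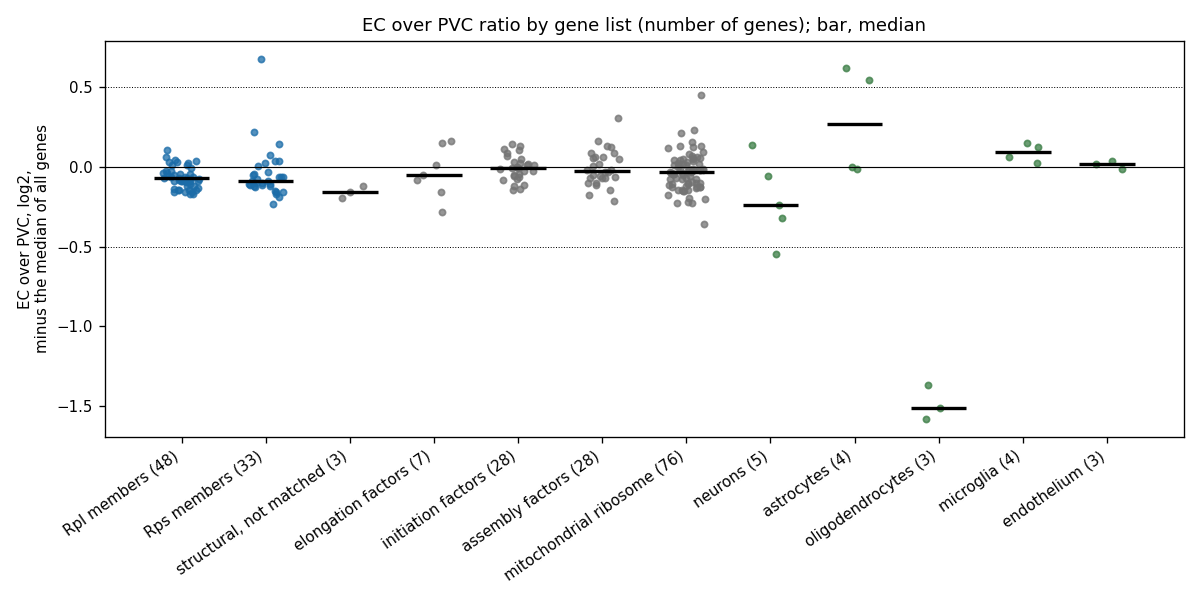
EC over PVC log2 ratio of mean normalized counts, minus the median of all genes, for each gene with a mean of at least 10 in both regions in the lists named below the axis (number of genes in brackets), with bars at list medians and dotted lines at 0.5 in each direction. The Rpl and Rps genes lie near 0 with medians of -0.07 and -0.09, and the oligodendrocyte markers lie lowest at a median of -1.51.

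Markers of some cell types lay farther from 0 in the centred ratio than the ribosomal protein genes did, and those of others did not. All 3 oligodendrocyte markers (*Mbp*, *Mog*, *Mag*) were lower in the EC, at -1.58 to -1.37, with summed mean normalized counts of 25216 (EC) and 35450 (PVC). Of 4 astrocyte markers, 2 were higher in the EC by 0.5 or more (*Gfap* at 0.62, *Aqp4* at 0.54), while *Slc1a2* was at -0.002 and *Aldoc* at -0.02. The sums of all 4 were 237400 (EC) and 124950 (PVC), of which *Slc1a2* made up 180640 and 97394. The sums in this paragraph are not centred. Of 6 neuron markers, 5 were listed and 1 was lower by 0.5 or more (*Snap25* at -0.55), with sums of 306590 and 200580. Of these 5, 4 were below 0 and *Slc17a7* was at 0.14. The 4 microglia markers had a median of 0.09 and the 3 endothelial markers a median of 0.01. Among markers of neighbouring tissues, *Ttr* of the choroid plexus was at -2.18, with 155 (EC) and 378 (PVC), whereas *Kl* was at 0.02 and *Folr1* had 9.89 and 5.00. *Prox1* of the dentate gyrus was at -0.25. The other dentate gyrus marker, *Dsp*, had 35.7 (EC) and 9.69 (PVC), below the minimum in the PVC, so no ratio was taken. Of the skeletal muscle markers *Acta1* was at -0.60, with 361 (EC) and 295 (PVC), and *Myh4* at 0.18. Every listed neuronal and glial marker was well above the minimum in both regions, and of the 2 testis markers *Prm1* was at 12.5 (EC) and 5.75 (PVC) and *Prm2* at 0.995 and 0.297. The part of these marker differences in the ratios of the ribosomal protein genes was not tested, and fewer cells of a type and less RNA per cell cannot be told apart in such tissue.

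Many reads of ribosomal protein genes could match more than 1 place. Of all windows of 149 bases in a member's coding transcript, the median member had 70.4% that were also found elsewhere in NCBIM37 with at most 2 mismatches and 35.3% that were found without any. In 52 of the 81 members more than 50% of windows were shared in this way, and in 6 members none was. A copy of at least 95% identity over at least 80% of the coding transcript was found for 51 members, with 349 copies in all and up to 29 for 1 gene (*Rpl7a*). In *Rps27*, 99.5% of the windows were found elsewhere without a mismatch, and its mean normalized count was still 3540 in the EC and 2046 in the PVC.

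Members with more shared sequence did not have lower levels per kilobase. Per kilobase of coding transcript, the 52 members with more than 50% of windows shared had a median level of 7539 (EC) and 4174 (PVC), and the other 29 had 5467 and 3137. The Spearman rho between the level in the EC and the share of windows was 0.376 over 81 genes, or 0.247 for windows without a mismatch. The level in the EC also fell with the length of the coding transcript, with a rho of -0.340. The low genes *Rps27l*, *Rps4y2*, *Rps19bp1* and *Rpl7l1* were all among the 29. The part of length and of these genes in the difference was not tested. The median centred ratio was -0.07 for the 52 members and -0.09 for the 29, and its rho with the shared windows was 0.187. These correlations run over genes, not over independent samples, and are a description. How the counting assigned reads that match more than 1 place is not given in the sources used here, so levels of members with copies, and the split between a member and its copies, are uncertain.

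**Figure D5:**
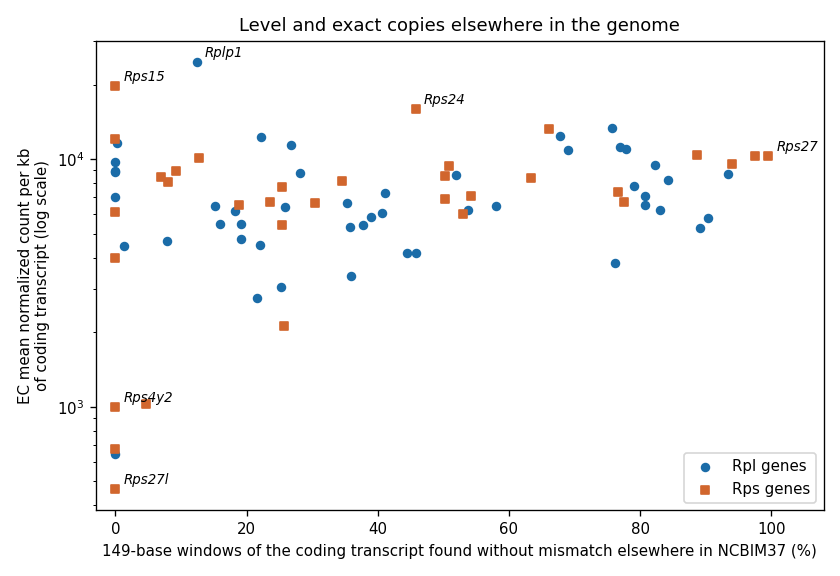
EC mean normalized count per kilobase of coding transcript (log scale) against the percentage of 149-base windows of that transcript found without a mismatch elsewhere in NCBIM37, for the Rpl genes (circles) and the Rps genes (squares). *Rps27*, at 99.5%, stands at 10260, and the lowest genes, *Rps27l* and *Rps4y2* among them, lie at or near 0%.

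The members are spread over 19 chromosomes, with 14 on chromosome 7 and 4 on the X chromosome. They have 1 to 10 exons in the coding transcript, with a median of 5, and 29 of them hold 55 annotated small nucleolar RNAs, most of which guide the modification of rRNA and are released from introns. The annotation places another protein-coding gene over 15 members, such as *Sphk2* over *Rpl18*, *Pcnp* over *Rpl24* and *Nkiras1* over *Rpl15*, and reads of overlapping exons there are uncertain too. *Nkiras1* had a centred ratio of -0.29 while *Rpl15* was at 0.03, and *Pcnp* and *Rpl24* were both at -0.07.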

How the data were processed

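The authors aligned the reads to mm9 (NCBIM37) with TopHat2 2.0.6 and Bowtie2 2.0.2.0, counted them per gene with HTSeq and ran DESeq2 1.10.1 on each region to compare genotypes. In the deposited tables, 1 per region, the authors' mean normalized count is a signal, the mean over all 29 libraries of counts divided by size factors. The other 5 columns hold the authors' genotype comparison and were not used, and no column of a single sample was left unmatched (0). Depth per library is unknown from these means.

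Symbols were matched to the NCBIM37 annotation (GENCODE), which gave an exon length for 81.2% of genes, including all members. Ratios, percentiles and lists were obtained in Python (3.11.15) using pandas 2.3.3, numpy 2.4.6 and scipy 1.17.1. The centred ratio and its threshold were tested on simulated data, and the search for shared windows on a constructed case. The other steps were not tested in this way. Copies were found with BLAST 2.17.0, and paralogs were aligned with Biopython 1.88. Promoters are from RefSeq (GRCm38.p6), and coordinates of the 2 builds were not mixed. Genes named are the 5 highest and 5 lowest in level and ratio, paralogs and members of fixed role lists. The members and lists were chosen with earlier results of these data known. Other settings were the transcript length, the centre of the ratio, its threshold and the minimum mean. The coding transcript length and the omission of *Rps4y2* were chosen after seeing the data, as were *Rps24*, *Rps20*, *Rps27* in the copy search, *Rpl15*, *Rpl24* and the overlapping genes as examples. Some genes of the rule and lists are not reported here by name, and those of the lists were left out of them.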

Additional observations from a re-analysis of the deposited data

How the results depend on the processing

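Of 63 alternative values, 37 kept the direction and stayed within the tolerance set for them. With the coding transcript as the length, the highest over the lowest member fell from 86.7 to 53.0 in the EC and from 78.0 to 47.7 in the PVC, and the direction reversed for *Rpl22l1*, from 268% to 43.6% of *Rpl22* in the EC and from 265% to 43.1% in the PVC. The share of normalized counts rose from 0.903% to 2.74% in the EC and from 0.932% to 2.79% in the PVC per kilobase, by construction. The 1 member at 0.5 or more toward the EC became 0 without *Rps4y2* and 0 at a threshold of 1. Centring on genes with a mean of at least 100 moved every ratio up by 0.02, and the median ratio ran from -0.09 to -0.06 over the alternatives. No paired analysis was possible because the tables hold 1 pooled mean per region, although the animal numbers are shared. Values of single mice, and with them any spread, were not analysed here.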
